A study of Mus musculus with 12 samples.

Results

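Freshly isolated CD8+ and CD4+ dendritic cells of the mouse spleen were compared at the level of the transcript. The comparison rests on 4 of the series' 12 oligonucleotide arrays, chosen by their titles: 2 of CD8+ cells and 2 of CD4+ cells, both sorted for high CD11c and processed directly after isolation. The other 8 arrays hold CD4- CD8- double-negative (DN) cells processed in the same way, and all 3 subsets after 2 h in culture medium at 37 °C, with 2 arrays a group. Genotype, strain, treatment, sex and age of the mice are not given in the labels, nor whether the 2 arrays of a group came from separate animals, so the p-values below measure the spread between these arrays, which may be technical. One label of CD8+ replicate 1 calls its cells CD4 positive, while its title and source call them CD8+. On that array Cd8a stood at 1210.4 and Cd4 at 92.0, and it was used as CD8+.

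Dendritic cells take up antigen and present it to T cells. In the mouse spleen, CD8+ dendritic cells are known for taking up dying cells and presenting their antigens on MHC class I to CD8+ T cells, and their development depends on the transcription factors Irf8, Batf3 and Id2. CD4+ dendritic cells belong to the CD8-negative branch, which is known for presentation on MHC class II to CD4+ T cells and depends on Irf4, Relb, Notch2 and lymphotoxin signals.

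Values are Average Difference intensities, the array's perfect-match minus mismatch signal, scaled by the authors. They can be below 0, and a value under the detection floor of 91.4 was read as not above background. Differences are CD8+ minus CD4+ on a generalised log2 scale with their standard error (±), and adjusted p-values are those of limma with Benjamini-Hochberg adjustment over the 6159 probe sets tested. Where both arrays of a subset lay at or under the floor, "at least N-fold" gives the other subset's mean over the floor. Such a bound is smaller than the difference the intensities show.

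The 2 CD8+ arrays were less alike than the 2 CD4+ arrays. Over the tested probe sets, the rank correlation between replicates was 0.812 for CD8+ and 0.940 for CD4+ cells, against 0.751 to 0.890 between arrays of different subsets. The 3' to 5' ratio of the Gapdh control probe sets, a sign of RNA integrity, was 2.55 on CD8+ replicate 1 and 0.890 to 1.04 on the other 3 arrays compared. Whether this array's RNA shaped a result was not tested, but counts without it are given below. Itgax, which encodes CD11c, stood at 3209.8 and 2687 on the CD4+ arrays and 1449.9 and 2454 on the CD8+ arrays (log2 difference -0.64 ± 0.40, adjusted p = 0.694), so the marker of the sort was high on all 4.

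Of the 6159 probe sets tested, 122 (1.98%) were called at an adjusted p under 0.05, 63 higher (1.02%) and 59 lower (0.958%) in CD8+ cells. They stood for 56 genes higher and 54 lower, and 4 called probe sets had no single gene symbol. On all 122 the CD8+ and CD4+ arrays did not overlap, which held in the same sense for 18.5% (higher) and 20.6% (lower) of all tested. The called differences ran from 1.02 to 5.49 (higher) and, in size, from 1.24 to 4.80 (lower) on the log2 scale. With the experiment number of the labels as a block, which paired the arrays, 192 probe sets were called, all 122 among them. The count rested on single arrays: it was 30 and 26 without CD4+ replicate 1 or 2, 52 without CD8+ replicate 1 and 181 without CD8+ replicate 2, and 202 without cultured CD4+ replicate 1, which enters through the shared estimate of the spread. Called in each of the 4 fits that left out 1 compared array were 14 probe sets higher, among them those of Cd8a, Cadm1, Cd24a and Xcr1, and 9 lower, among them those of Dtx1, Ltb and Relb.

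**Figure D1:**
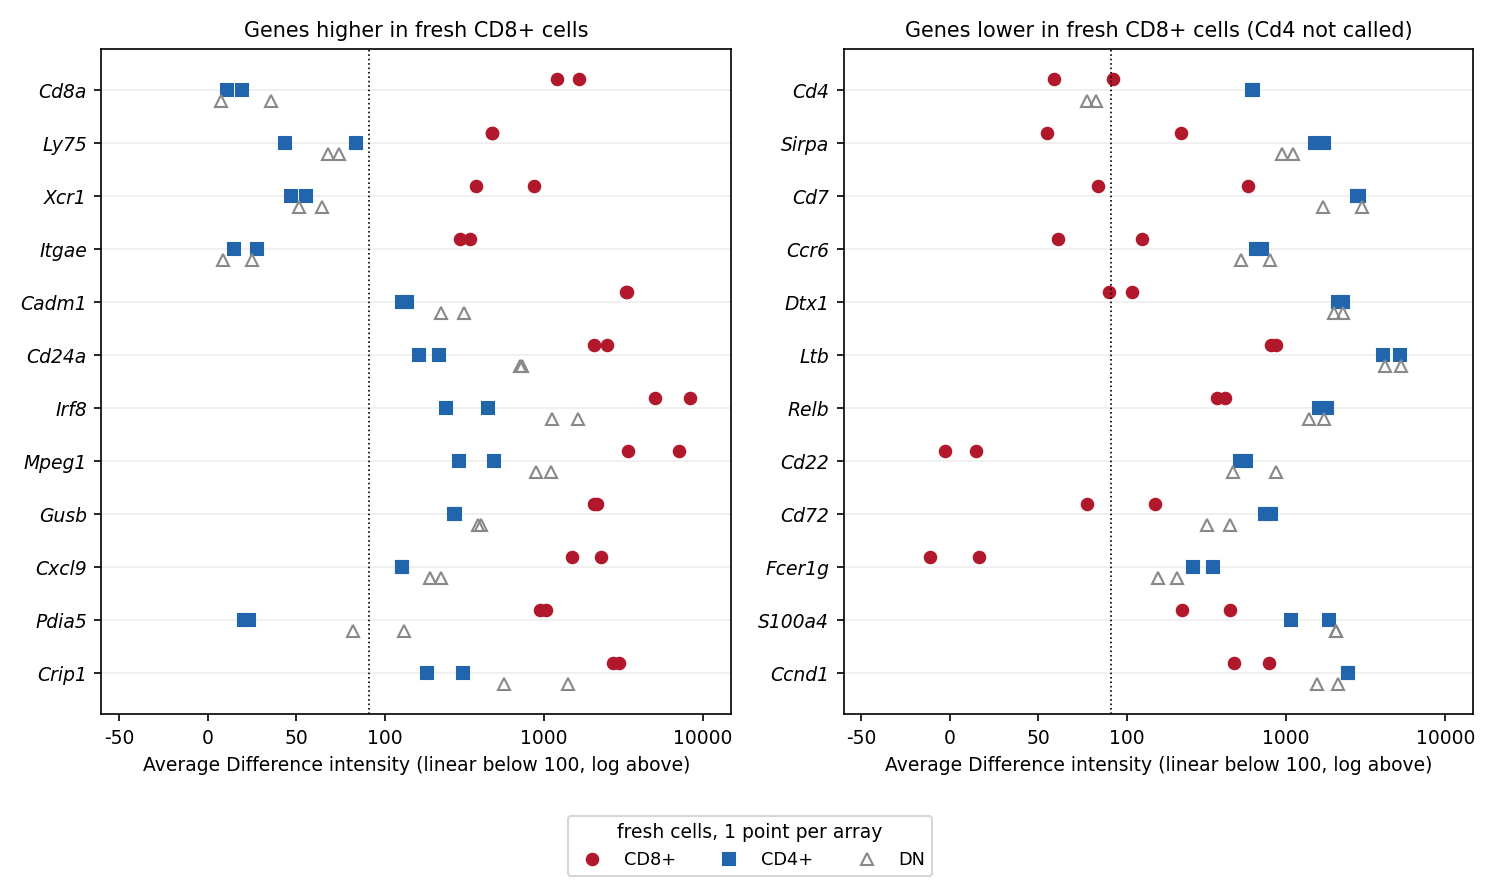
Average Difference intensity (x axis, linear below 100 and logarithmic above) of 12 genes called higher and 12 genes lower in fresh CD8+ cells, Cd4 being shown though it was not called; each point is 1 array of fresh CD8+ (circles), CD4+ (squares) or DN cells (triangles), and the dotted line is the detection floor of 91.4. For all 24 genes both CD8+ points lie on one side of both CD4+ points, as on all 122 called probe sets. Over all tested this held for 18.5% (higher) and 20.6% (lower).

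Genes known as markers of CD8+ dendritic cells were among the transcripts higher in CD8+ cells. Their list is labelled surface markers, but it also holds Pde1b, a phosphodiesterase, and Cst3, the cystatin C gene, which do not encode surface molecules. Of the 10 markers of this list that were tested, 7 were called higher and 0 lower, each gene counted by its brightest probe set as in all lists, against 1.14% of all genes in each direction, and the list's median log2 difference was 3.14 against 0.002 over all genes. The same share and median over all genes are the background of every list below. Cd8a, 1 of these 7, encodes the CD8 alpha chain by which the cells were sorted, so its difference follows the sort. It was at 19.7 and 11.2 on the CD4+ arrays and 1210.4 and 1675 on the CD8+ arrays (at least 15.6-fold higher, adjusted p = 0.000518). Cadm1, which encodes the adhesion molecule Necl2 of dendritic cells that cross-present, measured 129 and 139 on the CD4+ arrays and 3325 and 3296 on the CD8+ arrays (log2 difference 4.59 ± 0.45, adjusted p = 0.000617), and its 3 probe sets were all called higher. None of the 3 has the plain suffix of a unique probe set, and the quoted one is of a family type that can share probes with related transcripts. Cd24a, a surface sialoglycoprotein, stood at 164 and 219 on the CD4+ arrays and 2063 and 2486 on the CD8+ arrays (log2 difference 3.56 ± 0.28, adjusted p = 0.000196). In each of these 3 genes the CD4+ arrays lay far below both CD8+ arrays.

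Receptors used in uptake and migration were among them. Xcr1, the receptor for the chemokine XCL1, measured 55.5 and 47.0 on the CD4+ arrays and 373 and 872 on the CD8+ arrays (at least 6.24-fold higher, adjusted p = 0.00287). Ly75, the endocytic lectin receptor DEC-205, was at 43.7 and 84.0 on the CD4+ arrays and 476 and 474 on the CD8+ arrays (at least 5.2-fold higher, adjusted p = 0.024). Itgae, the CD103 integrin chain, stood at 14.7 and 28.0 in CD4+ against 298 and 345 in CD8+ cells (at least 3.51-fold higher, adjusted p = 0.0154), and both of its probe sets were called. Pde1b, a cyclic nucleotide phosphodiesterase, measured 82.2 and 96.9 in CD4+ against 686 and 968 in CD8+ cells (log2 difference 3.10 ± 0.43, adjusted p = 0.00348). None of these 4 overlapped between the subsets, as held for all 122 called probe sets and, in this direction, for 18.5% of all tested. Not called were Cd1d1, which presents lipids to NKT cells (317 and 389.8 in CD4+ against 1277 and 921 in CD8+ cells, log2 difference 1.62 ± 0.37, adjusted p = 0.0518, or 0.0252 with the experiment number as a block), and Cst3, the cystatin C gene (5385 and 4051 in CD4+ against 12134 and 6155 in CD8+ cells, log2 difference 0.89 ± 0.30, adjusted p = 0.223). Ly75 lost its call without either fresh CD4+ array, either fresh CD8+ array or fresh DN replicate 2 (adjusted p = 0.0507 to 0.246). Itgae lost its call without either fresh CD4+ array or either fresh CD8+ array (adjusted p = 0.073 to 0.182). Pde1b lost its call without CD4+ replicate 1 (adjusted p = 0.0522). Cd8a, Cadm1, Cd24a and Xcr1 stayed called with any 1 of the 12 arrays left out. Without CD8+ replicate 1, 5 of the list's members were called.

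The list of surface genes of CD8-negative dendritic cells had a smaller share of calls, 0 higher and 2 lower among 12 tested, with a median of -0.80. Sirpa, the CD172a receptor for CD47, measured 1721 and 1523 on the CD4+ arrays and 55.1 and 218 on the CD8+ arrays (log2 difference -3.78 ± 0.69, adjusted p = 0.0161), and 2 of its 3 probe sets were called. Cd7, a surface molecule of T cells, stood at 2804 and 2876 on the CD4+ arrays and 83.6 and 574 on the CD8+ arrays (log2 difference -3.65 ± 0.68, adjusted p = 0.0194). In both, CD8+ replicate 2 was the closer of the CD8+ arrays to the CD4+ level. Cd4 itself, by which the CD4+ cells were sorted, was at 617 and 613 on the CD4+ arrays and 92.0 and 58.9 on the CD8+ arrays (log2 difference -2.93 ± 0.77, adjusted p = 0.0903, or 0.0488 with the experiment number as a block), so its arrays did not overlap but the test was not passed. Ccr2, a monocyte chemokine receptor, and Cd81, a tetraspanin, lay the other way, at 24.3 and 16.3 in CD4+ against 365 and 104 in CD8+ cells (at least 2.13-fold apart, adjusted p = 0.0824, or 0.0314 with the experiment number as a block) and 472 and 382 in CD4+ against 746 and 1669 in CD8+ cells (log2 difference 1.39 ± 0.40, adjusted p = 0.126). Sirpa and Cd7 lost their calls without either fresh CD4+ array or CD8+ replicate 1 (adjusted p = 0.0684 to 0.154). Another probe set of Sirpa stayed called with each of the 4 compared arrays left out. In bulk RNA, fewer cells of a type and less RNA per cell cannot be told apart.

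The transcription factor list held 1 gene called in each direction among 32 tested, with a median of -0.08. Irf8, on which CD8+ dendritic cells depend, measured 448 and 243 on the CD4+ arrays and 8271 and 5017 on the CD8+ arrays (log2 difference 4.28 ± 0.66, adjusted p = 0.00585). Relb, an NF-kB subunit on which CD8-negative dendritic cells depend, stood at 1797 and 1615 on the CD4+ arrays and 370.0 and 417 on the CD8+ arrays (log2 difference -2.11 ± 0.23, adjusted p = 0.000961), with 1 of its 2 tested probe sets called. Mycl, a MYC family factor of CD8+ dendritic cells, and Id2, an inhibitor of E proteins, were not called at 452 and 425 in CD4+ against 1664 and 1258 in CD8+ cells (log2 difference 1.72 ± 0.40, adjusted p = 0.0588, or 0.0403 with the experiment number as a block) and 1936 and 2049.6 in CD4+ against 6684 and 3565 in CD8+ cells (log2 difference 1.29 ± 0.31, adjusted p = 0.059, or 0.0441 with the experiment number as a block). Irf4, the factor of CD8-negative cells, was at 474 and 625 in CD4+ against 47.2 and 154 in CD8+ cells (log2 difference -2.53 ± 0.69, adjusted p = 0.105). Its groups did not overlap, and CD8+ replicate 2 was the closer to the CD4+ arrays. Irf8 lost its call without CD4+ replicate 2 or CD8+ replicate 1 (adjusted p = 0.0723 to 0.0809). Relb stayed called with any 1 of the 12 arrays left out.

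Promoters of 3 genes are shown because they cover the sorted marker, the higher transcription factor and the lower lymphotoxin gene described here. Each is the RefSeq window (GRCm38.p6) from 250 bases before to 50 after a transcript start, 5′ to 3′ on the gene's strand, with matches to 4 short motifs in capitals.
Cd8a (chr6:71373177-71373476, plus strand; 2 matches to an ETS-IRF composite motif): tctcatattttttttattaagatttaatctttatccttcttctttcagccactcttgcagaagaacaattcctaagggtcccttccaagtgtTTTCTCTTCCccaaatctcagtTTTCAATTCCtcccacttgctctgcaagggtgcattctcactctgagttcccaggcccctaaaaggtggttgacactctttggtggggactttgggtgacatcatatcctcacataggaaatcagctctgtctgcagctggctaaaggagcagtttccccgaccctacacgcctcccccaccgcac
Irf8 (chr8:120736108-120736407, plus strand; 1 match to an RBPJ motif): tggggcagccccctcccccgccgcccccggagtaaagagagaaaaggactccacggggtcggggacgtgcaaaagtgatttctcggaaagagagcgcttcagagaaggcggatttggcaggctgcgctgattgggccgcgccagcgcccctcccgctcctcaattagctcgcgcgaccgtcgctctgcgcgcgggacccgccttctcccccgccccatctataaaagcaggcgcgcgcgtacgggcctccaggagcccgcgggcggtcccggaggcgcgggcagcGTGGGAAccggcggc
Ltb (chr17:35194257-35194556, plus strand; 1 match to an NF-kB motif): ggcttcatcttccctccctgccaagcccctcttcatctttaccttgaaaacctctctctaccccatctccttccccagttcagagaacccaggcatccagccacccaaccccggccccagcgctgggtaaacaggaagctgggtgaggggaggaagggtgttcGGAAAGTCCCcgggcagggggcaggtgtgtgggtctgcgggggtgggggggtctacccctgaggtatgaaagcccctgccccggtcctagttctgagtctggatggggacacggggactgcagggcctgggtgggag
The motifs were searched on both strands. That of interferon regulatory factors was GAAA followed by 2 free bases and GAAA, and the ETS-IRF composite was GGAA, 2 free bases and GAAA. The NF-kB motif was GGG, 3 free bases and TTCC, and that of RBPJ, the DNA-binding partner of Notch, was GTGGGAA. The first pair of motifs can overlap. The window of Irf8 is 1 of 2 in the table, and the other held no match. Among the 49 genes called higher that had a window, 4 (8.16%) held the interferon regulatory factor motif, 2 (4.08%) the composite, 8 (16.3%) the NF-kB and 5 (10.2%) the RBPJ motif. Among the 39 called lower these were 1 (2.56%), 1 (2.56%), 4 (10.3%) and 2 (5.13%). Over the 3837 tested genes with a window the shares were 3.91%, 2.71%, 7.53% and 6.57%, and over all 32851 windows of the table they were 3.44%, 2.72%, 5.56% and 6.38%, in the same order. A match describes the letters only.

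Of the Notch pathway, in which a cleaved receptor acts with RBPJ on its target genes, 1 of 14 tested genes was called higher and 1 lower (median 0.12). Over all genes the share called was 1.14% in each direction. Dtx1, the ubiquitin ligase deltex and a target of Notch, was among the transcripts with the lowest adjusted p, at 2267 and 2131 on the CD4+ arrays and 108 and 90.0 on the CD8+ arrays (log2 difference -4.40 ± 0.28, adjusted p = 3.92e-05). Of the CD8+ values, 1 lay just above the detection floor and 1 just below it. Notch4, a receptor, measured 11.1 and 11.6 on the CD4+ arrays and 517 and 194 on the CD8+ arrays (at least 3.47-fold higher, adjusted p = 0.0449). The receptors Notch1 and Notch2 were not called (226 and 238 in CD4+ against 106 and 216 in CD8+ cells, adjusted p = 0.803, and 181 and 172 in CD4+ against 453 and 221 in CD8+ cells, adjusted p = 0.5), nor was Mfng, a glycosyltransferase that modifies Notch receptors (458 and 369 in CD4+ against 134 and 299 in CD8+ cells, log2 difference -1.02 ± 0.40, adjusted p = 0.334). Notch4 lost its call without either fresh CD4+ array, CD8+ replicate 1, either fresh DN array, either cultured CD8+ array or cultured DN replicate 1 (adjusted p = 0.0522 to 0.381). Dtx1 stayed called with any 1 of the 12 arrays left out.

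Lymphotoxin acts through a receptor on stromal and dendritic cells and through the non-canonical NF-kB pathway, of which Relb is an end point. Of the 15 genes tested in this list, 0 were called higher and 2 lower, and 14 had a negative difference (median -0.85). Over all genes 1.14% were called in each direction, and the median was 0.002. Ltb, which encodes lymphotoxin beta, the membrane anchor of the ligand, measured 5186 and 4049 on the CD4+ arrays and 866 and 804 on the CD8+ arrays (log2 difference -2.46 ± 0.29, adjusted p = 0.00135). The other called member was Relb, described above. The adaptors Traf1 and Traf2 were not called at 1117 and 992 in CD4+ against 592 and 498 in CD8+ cells (log2 difference -0.95 ± 0.26, adjusted p = 0.0985) and 556 and 444 in CD4+ against 250.1 and 303 in CD8+ cells (log2 difference -0.85 ± 0.28, adjusted p = 0.201), and neither was the inhibitor Nfkbie at 173 and 108 in CD4+ against 2.0 and 75.6 in CD8+ cells (at least 1.5-fold apart, adjusted p = 0.191). Ltb stayed called with any 1 of the 12 arrays left out.

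The lists of uptake genes and of lysosomal genes held called members. Mpeg1, the pore-forming perforin-2 of phagocytes, measured 486 and 292 on the CD4+ arrays and 7071 and 3369 on the CD8+ arrays (log2 difference 3.69 ± 0.39, adjusted p = 0.000831). Scarb2, a lysosomal membrane protein also known as LIMP-2, stood at 158 and 201 in CD4+ against 506 and 498 in CD8+ cells (log2 difference 1.48 ± 0.32, adjusted p = 0.04). They were the 2 called of 12 tested in the list of phagocytic, scavenger and lectin receptors (median 0.25). A pore-forming protein and a lysosomal membrane protein are not themselves uptake receptors. Scarb1, an HDL receptor, and Cd68 were not called (339 and 327 in CD4+ against 601 and 832 in CD8+ cells, log2 difference 1.08 ± 0.31, adjusted p = 0.121, and 1782 and 1604 in CD4+ against 481 and 1407 in CD8+ cells, log2 difference -1.04 ± 0.62, adjusted p = 0.655). Of 35 lysosomal genes, 1 was called higher and 1 lower (median -0.28), near the 1.14% of all genes in each direction. Gusb, beta-glucuronidase, measured 271 and 277 on the CD4+ arrays and 2169.9 and 2060.0 on the CD8+ arrays (log2 difference 2.94 ± 0.25, adjusted p = 0.000243), and Acp5, tartrate-resistant acid phosphatase, 967 and 866 in CD4+ against 51.5 and 158 in CD8+ cells (log2 difference -3.22 ± 0.45, adjusted p = 0.00373). Neither overlapped between the subsets, as held for all 122 called probe sets and for 18.5% (higher) and 20.6% (lower) of all tested. The next lysosomal genes, all with lower means in CD8+ cells but not called, were Ctsz, a cathepsin (1199 and 1143 in CD4+ against 357 and 683 in CD8+ cells, log2 difference -1.24 ± 0.29, adjusted p = 0.059, or 0.0441 with the experiment number as a block), Npc1, a cholesterol exporter (498 and 529 in CD4+ against 192 and 176 in CD8+ cells, log2 difference -1.46 ± 0.35, adjusted p = 0.0644, or 0.0426 with the experiment number as a block), and Ctsa, a carboxypeptidase (1652 and 1279 in CD4+ against 412 and 616 in CD8+ cells, log2 difference -1.53 ± 0.41, adjusted p = 0.0977). Scarb2 lost its call without either fresh CD4+ array, either fresh CD8+ array, either fresh DN array, either cultured CD8+ array or either cultured DN array (adjusted p = 0.0502 to 0.369). Acp5 lost its call without CD4+ replicate 1 (adjusted p = 0.0513). Mpeg1 and Gusb stayed called with any 1 of the 12 arrays left out.

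Of 19 MHC class II presentation genes, 0 were called in either direction (median -0.44), with 2 called lower under the experiment block. Of the 19, 5 had a positive and 14 a negative difference. H2-Aa and Cd74, named here after their values were seen, overlapped between the subsets and do not stand for the list. H2-Aa, the class II alpha chain, was at 7968 and 4822 in CD4+ against 12325 and 5076 in CD8+ cells (adjusted p = 0.917), and Cd74, the invariant chain, at 9004 and 5623 in CD4+ against 12413 and 5776 in CD8+ cells (adjusted p = 0.951). H2-DMb2, a chain of the peptide loader, stood at 2817 and 2718 in CD4+ against 194 and 1030.2 in CD8+ cells (log2 difference -2.62 ± 0.68, adjusted p = 0.0903, or 0.0495 with the experiment number as a block), and the class II beta gene H2-Eb2 at 258 and 309 in CD4+ against -8.6 and 26.9 in CD8+ cells (at least 3.09-fold apart, adjusted p = 0.0923, or 0.0488 with the experiment number as a block). H2-Oa, a chain of the DM inhibitor, was at 3316 and 2869 in CD4+ against 1702 and 1815 in CD8+ cells (log2 difference -0.81 ± 0.27, adjusted p = 0.214).

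Of 22 genes of MHC class I and cross-presentation, 1 was called higher and 0 lower (median 0.12). Rab11a, a GTPase of recycling endosomes, measured 469.8 and 405 in CD4+ against 1329 and 899 in CD8+ cells (log2 difference 1.32 ± 0.29, adjusted p = 0.0466), with 1 of its 2 probe sets called. The peptide transporter Tap2 was at 315 and 268 in CD4+ against 697 and 476 in CD8+ cells (log2 difference 0.98 ± 0.29, adjusted p = 0.143), the folding enzyme Pdia3 at 502 and 433 in CD4+ against 996 and 831 in CD8+ cells (log2 difference 0.96 ± 0.26, adjusted p = 0.104) and the phagosomal NADPH oxidase regulator Rac2 at 3144 and 2588 in CD4+ against 1020.5 and 1395 in CD8+ cells (log2 difference -1.26 ± 0.32, adjusted p = 0.0795). Rab11a lost its call without either fresh CD4+ array, CD8+ replicate 1, either fresh DN array, either cultured CD8+ array or either cultured DN array (adjusted p = 0.0557 to 0.382).

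The called signalling genes best known from antigen receptors were all lower in CD8+ cells. Of 29 tested, 0 were called higher and 4 lower, 21 had a negative difference and the median was -0.62. Over all genes 1.14% were called in each direction, with a median of 0.002. Cd22, an inhibitory sialic acid-binding receptor, measured 512 and 564 on the CD4+ arrays and 14.8 and -2.8 on the CD8+ arrays (at least 5.88-fold lower, adjusted p = 0.0119). Cd72, an inhibitory receptor that binds semaphorin CD100, was at 742 and 799.5 on the CD4+ arrays and 77.7 and 152 on the CD8+ arrays (log2 difference -2.76 ± 0.51, adjusted p = 0.017). Both are well known from B cells, whose marker list is given below. Fgr, a Src family kinase, stood at 1211 and 1311 in CD4+ against 145 and 259 in CD8+ cells (log2 difference -2.68 ± 0.56, adjusted p = 0.0352), and Ptpn6, the phosphatase SHP-1 that inhibitory receptors recruit, at 2609.7 and 2131 in CD4+ against 949.9 and 924 in CD8+ cells (log2 difference -1.33 ± 0.27, adjusted p = 0.0315). No CD8+ array of these 4 genes reached a CD4+ array, as held for every probe set called lower and for 20.6% of all tested. The adaptor Lcp2 (853 and 932 in CD4+ against 325 and 386 in CD8+ cells, log2 difference -1.33 ± 0.31, adjusted p = 0.0579, or 0.0488 with the experiment number as a block), the kinase Prkcb (1864 and 2577 in CD4+ against 1188 and 994 in CD8+ cells, log2 difference -1.01 ± 0.25, adjusted p = 0.0763) and the inhibitory receptor Pirb (1250.4 and 1113 in CD4+ against 477 and 733 in CD8+ cells, log2 difference -0.99 ± 0.34, adjusted p = 0.234) were not called. Cd22 lost its call without either fresh CD4+ array, CD8+ replicate 1 or fresh DN replicate 2 (adjusted p = 0.0536 to 0.233). Cd72 lost its call without either fresh CD4+ array or CD8+ replicate 1 (adjusted p = 0.136 to 0.154). Fgr lost its call without either fresh CD4+ array, CD8+ replicate 1 or either fresh DN array (adjusted p = 0.0638 to 0.262). Ptpn6 lost its call without either fresh CD4+ array, either fresh CD8+ array or either cultured CD8+ array (adjusted p = 0.0605 to 0.335). Without CD8+ replicate 1, 0 members of this list were called.

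Of 15 Fc and complement genes, 0 were called higher and 2 lower, against 1.14% of all genes in each direction (median -0.05). Fcer1g, the signalling gamma chain shared by Fc receptors, measured 347 and 262 on the CD4+ arrays and -10.9 and 16.5 on the CD8+ arrays (at least 3.3-fold lower, adjusted p = 0.013). Cfp, properdin, which stabilises the alternative complement pathway, stood at 1520.2 and 1447 in CD4+ against 209 and 537 in CD8+ cells (log2 difference -2.14 ± 0.39, adjusted p = 0.0154). The inhibitory receptor Fcgr2b lay the other way at 89.9 and 65.0 in CD4+ against 355 and 366 in CD8+ cells (at least 3.94-fold apart, adjusted p = 0.053, or 0.0319 with the experiment number as a block), and the CR3 chain Itgam was at 129 and 120.5 in CD4+ against 22.1 and 4.8 in CD8+ cells (at least 1.36-fold apart, adjusted p = 0.3). Of 8 Toll-like receptor genes tested, 0 were called (median -0.28), and the lowest p was that of Tlr6 (250.2 and 389.6 in CD4+ against 31.8 and 68.5 in CD8+ cells, at least 3.42-fold apart, adjusted p = 0.0588, or 0.0484 with the experiment number as a block). Fcer1g and Cfp lost their calls without either fresh CD4+ array or CD8+ replicate 1 (adjusted p = 0.0684 to 0.14).

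Among chemokines, 1 of 12 tested was called higher and 0 lower (median 0.54), against 1.14% of all genes in each direction. Cxcl9, which draws cells bearing CXCR3, measured 129.7 and 129.6 on the CD4+ arrays and 2299.8 and 1502 on the CD8+ arrays (log2 difference 3.80 ± 0.45, adjusted p = 0.00135). Ccl22, a ligand of CCR4, stood at 119 and 57.1 in CD4+ against 401 and 340.2 in CD8+ cells (log2 difference 2.05 ± 0.51, adjusted p = 0.0736, or 0.0091 with the experiment number as a block), and Ccl5 at 3435 and 2319 in CD4+ against 1413 and 690.3 in CD8+ cells (log2 difference -1.51 ± 0.59, adjusted p = 0.332, or 0.0134 with the experiment number as a block). Of 13 chemoattractant receptors tested, 2 were called higher and 2 lower (median -0.19), against the same 1.14%. Beside Xcr1, Cxcr3, the receptor for CXCL9, was at 64.5 and 45.9 in CD4+ against 205 and 298 in CD8+ cells (at least 2.7-fold higher, adjusted p = 0.0183). Lower were Ccr6, the receptor for CCL20 (645 and 702 in CD4+ against 124 and 61.3 in CD8+ cells, log2 difference -2.84 ± 0.42, adjusted p = 0.00478), and Ccrl2, a chemerin-binding receptor (373 and 464 in CD4+ against 78.3 and 75.3 in CD8+ cells, at least 4.55-fold lower, adjusted p = 0.0248). In none of these 3 did the arrays of the subsets overlap, as on all 122 called probe sets. Over all tested this held for 18.5% (higher) and 20.6% (lower). Cxcr3 lost its call without either fresh CD4+ array or either fresh CD8+ array (adjusted p = 0.0506 to 0.227). Ccr6 lost its call without either fresh CD4+ array (adjusted p = 0.0555 to 0.0623). Ccrl2 lost its call without either fresh CD4+ array, either fresh CD8+ array or fresh DN replicate 2 (adjusted p = 0.0506 to 0.244). Cxcl9 stayed called with any 1 of the 12 arrays left out.

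Cell-surface and guidance molecules also differed. Of 12 semaphorins, plexins and related genes, 1 was called higher and 2 lower (median 0.00), against 1.14% of all genes in each direction. Sema4a, a class 4 semaphorin known from T cell priming, measured 130.1 and 104 in CD4+ against 774 and 874 in CD8+ cells (log2 difference 2.77 ± 0.58, adjusted p = 0.0367). Plxnd1, a semaphorin receptor, stood at 445 and 480.3 on the CD4+ arrays and 34.3 and 52.2 on the CD8+ arrays (at least 5.06-fold lower, adjusted p = 0.000707), and the other lower member was Cd72. Sema4d, the gene of CD100, to which CD72 binds, was at 2478 and 1621 in CD4+ against 995 and 881 in CD8+ cells (log2 difference -1.10 ± 0.27, adjusted p = 0.0763, or 0.0439 with the experiment number as a block). Of 30 integrin and adhesion genes, only the already described Cadm1 and Itgae were called. Of 33 cytokines, costimulators and their receptors, 1 was called higher and 0 lower: Cd86, a ligand of CD28, at 96.4 and 106 in CD4+ against 455 and 362 in CD8+ cells (log2 difference 1.94 ± 0.39, adjusted p = 0.0299), with 1 of its 2 probe sets called. The decoy receptor Il1r2 was at 161 and 123 in CD4+ against 71.3 and 9.7 in CD8+ cells (at least 1.54-fold apart, adjusted p = 0.0871, or 0.0379 with the experiment number as a block). Sema4a lost its call without either fresh CD4+ array, either fresh CD8+ array, either fresh DN array or cultured CD8+ replicate 1 (adjusted p = 0.0502 to 0.26). Cd86 lost its call without either fresh CD4+ array, either fresh CD8+ array, either fresh DN array or either cultured CD8+ array (adjusted p = 0.0529 to 0.225). Plxnd1 stayed called with any 1 of the 12 arrays left out.

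Of 13 S100 and annexin genes, 0 were called higher and 2 lower by their brightest probe set (median -0.23). S100a4, an S100 protein linked to cell motility, measured 1868 and 1077 on the CD4+ arrays and 443 and 222 on the CD8+ arrays (log2 difference -2.17 ± 0.39, adjusted p = 0.0154), and S100a6, calcyclin, 1759 and 1944 on the CD4+ arrays and 491 and 472 on the CD8+ arrays (log2 difference -1.94 ± 0.27, adjusted p = 0.00348). Anxa1, annexin A1, lay the other way without a call (199 and 200.4 in CD4+ against 1003 and 499 in CD8+ cells, log2 difference 1.81 ± 0.44, adjusted p = 0.0644). S100a13 was called higher on the dimmest of its 3 probe sets, at 32.7 and 23.6 in CD4+ against 267 and 167 in CD8+ cells (at least 2.31-fold higher, adjusted p = 0.0315), but not on its brightest (337 and 306 in CD4+ against 852 and 418 in CD8+ cells, log2 difference 0.89 ± 0.44, adjusted p = 0.512). It was the 1 list member whose call differed in this way from that of its brightest probe set. Of 28 interferon-induced genes, 22 had a negative difference (median -0.50), but besides Cxcl9 the 1 call was Ifitm1, a membrane protein that restricts virus entry, at 605 and 586 on the CD4+ arrays and 81.2 and 48.9 on the CD8+ arrays (at least 6.52-fold lower, adjusted p = 0.000831). Ifitm6, of the same family, was named by its size and stood at 1383 and 1438 on the CD4+ arrays and 454 and 219 on the CD8+ arrays (log2 difference -2.15 ± 0.34, adjusted p = 0.00663), and Ifitm2 was at 293 and 231 in CD4+ against 75.8 and 104 in CD8+ cells (log2 difference -1.47 ± 0.37, adjusted p = 0.0764). Isg20, an exonuclease, was at 449 and 376 in CD4+ against 89.3 and 90.1 in CD8+ cells (at least 4.5-fold apart, adjusted p = 0.0518, or 0.00986 with the experiment number as a block). S100a4 lost its call without either fresh CD4+ array or CD8+ replicate 2 (adjusted p = 0.051 to 0.2). S100a6 lost its call without CD4+ replicate 2 (adjusted p = 0.0596). Ifitm6 lost its call without either fresh CD4+ array (adjusted p = 0.0857 to 0.0908). Ifitm1 stayed called with any 1 of the 12 arrays left out.

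**Figure D2:**
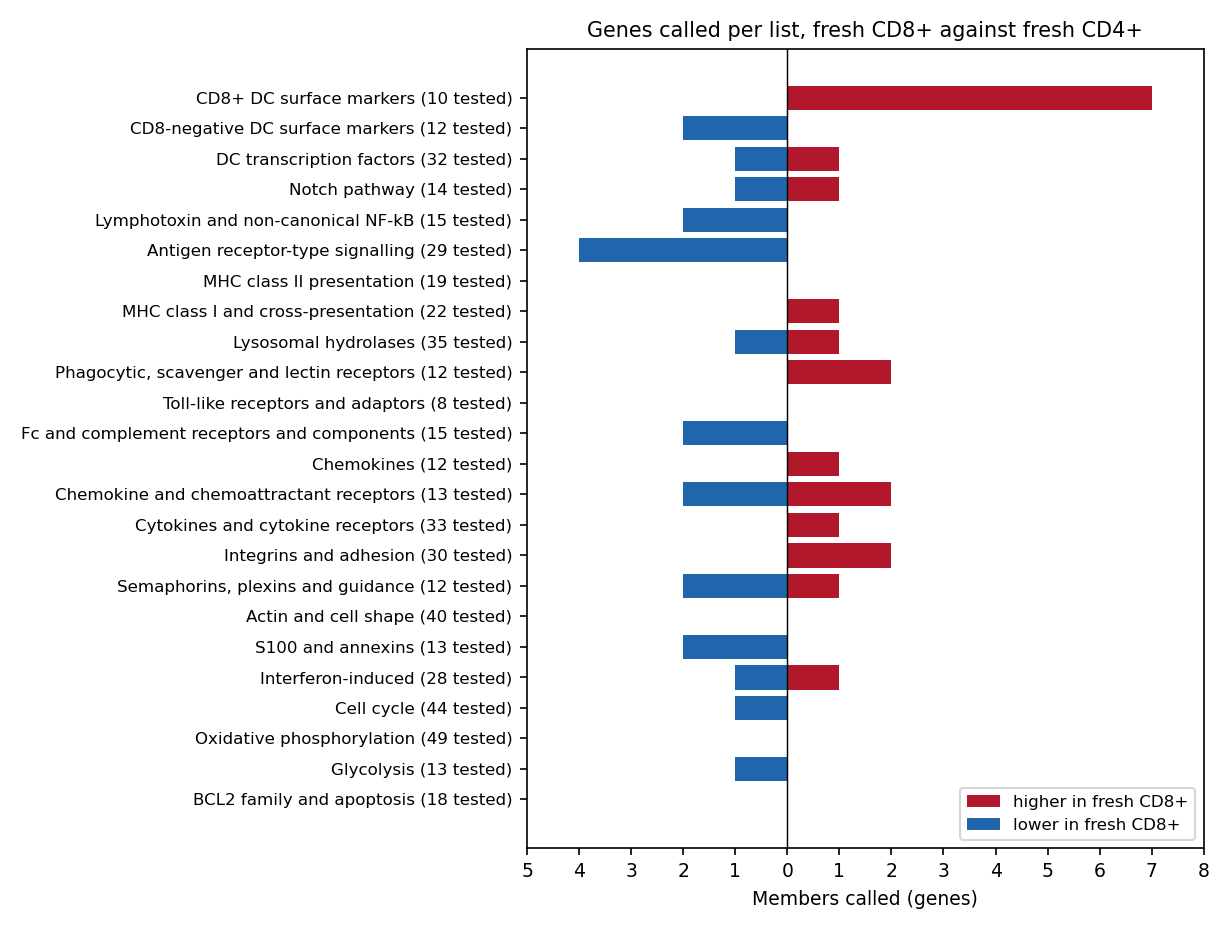
Number of genes called higher (to the right) or lower (to the left) in fresh CD8+ cells in each of 24 gene lists, with the number tested beside each name. The list labelled surface markers of CD8+ dendritic cells, which also holds the enzyme gene Pde1b, has 7 genes to the right. Antigen receptor-type signalling has 4 to the left, and no other list has more than 2 on either side.

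Of 49 oxidative phosphorylation genes, 0 were called, 37 had a positive difference and the median was 0.24. Of 40 actin and cell shape genes, 0 were called at a median of -0.0045. At 1.14% of all genes in each direction, counts of 0 or 1 in lists of this size are near the background. With the experiment number as a block, 1 gene of the former list was called higher, Uqcrb, a subunit of respiratory complex III (adjusted p = 0.0904, or 0.0494 with the block), and 1 of the latter lower, Gsn, the actin-severing protein gelsolin (adjusted p = 0.13, or 0.0369 with the block). Of 13 glycolysis genes, 1 was called lower: Slc2a3, the glucose transporter GLUT3, at 335 and 513 in CD4+ against 55.0 and 94.0 in CD8+ cells (log2 difference -2.39 ± 0.42, adjusted p = 0.0134), with 1 of its 2 probe sets called. Eno3, an enolase, was at 1107 and 1099.5 in CD4+ against 219.5 and 324 in CD8+ cells (log2 difference -2.04 ± 0.48, adjusted p = 0.059, or 0.0381 with the experiment number as a block). Of 44 cell cycle genes, 30 had a negative difference (median -0.16) and 1 was called lower. It was Ccnd1, cyclin D1, at 2451 and 2461 on the CD4+ arrays and 470.4 and 783 on the CD8+ arrays (log2 difference -2.02 ± 0.29, adjusted p = 0.00426), whose other probe set was not called. Ccnd2, cyclin D2, was at 117 and 133 in CD4+ against 3.9 and 12.4 in CD8+ cells (at least 1.36-fold apart, adjusted p = 0.148). Of 18 genes of the BCL2 family and apoptosis, 0 were called, and the pro-apoptotic Bcl2l11 was at 144 and 120.4 in CD4+ against 309.7 and 230.3 in CD8+ cells (log2 difference 0.99 ± 0.33, adjusted p = 0.222). Slc2a3 lost its call without either fresh CD4+ array or CD8+ replicate 1 (adjusted p = 0.071 to 0.208). Ccnd1 lost its call without either fresh CD4+ array (adjusted p = 0.0596 to 0.0616).

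Several called genes of large size lay outside these lists. Pdia5, a protein disulfide isomerase of the endoplasmic reticulum, measured 23.4 and 20.7 on the CD4+ arrays and 949.6 and 1028 on the CD8+ arrays (at least 10.8-fold higher, adjusted p = 0.000243). Aif1, the calcium-binding protein allograft inflammatory factor 1, was at 0.9 and 11.4 in CD4+ against 667 and 408 in CD8+ cells (at least 5.71-fold higher, adjusted p = 0.00426). Plpp1, a lipid phosphate phosphatase, stood at 7.5 and 9.3 in CD4+ against 328 and 813 in CD8+ cells (at least 5.65-fold higher, adjusted p = 0.00529), and Crip1, a LIM-domain protein, at 313 and 185 on the CD4+ arrays and 2723 and 2969 on the CD8+ arrays (log2 difference 3.55 ± 0.50, adjusted p = 0.00376). Gatm, an enzyme of creatine synthesis, was at 109 and 126 in CD4+ against 784 and 876 in CD8+ cells (log2 difference 2.77 ± 0.42, adjusted p = 0.00585). Serpinb9, an inhibitor of granzyme B, measured 35.6 and 54.2 in CD4+ against 589 and 334 in CD8+ cells (at least 4.86-fold higher, adjusted p = 0.00377). In all 6, both CD4+ arrays lay below both CD8+ arrays, as held for every probe set called higher and for 18.5% of all tested. Aif1 lost its call without either fresh CD4+ array or CD8+ replicate 1 (adjusted p = 0.0524 to 0.0752). Plpp1 and Gatm lost their calls without either fresh CD4+ array (adjusted p = 0.0596 to 0.0857). Crip1 lost its call without CD4+ replicate 2 (adjusted p = 0.0596). Serpinb9 lost its call without CD4+ replicate 1 (adjusted p = 0.0592). Pdia5 stayed called with any 1 of the 12 arrays left out.

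Other higher genes named by size included cytoskeletal and membrane proteins. Lima1, an actin-bundling LIM protein, measured -32.8 and 3.7 in CD4+ against 300.5 and 499.5 in CD8+ cells (at least 4.24-fold higher, adjusted p = 0.0119), and Tubb2a, a beta tubulin, 244 and 257 on the CD4+ arrays and 1108 and 1479 on the CD8+ arrays (log2 difference 2.34 ± 0.31, adjusted p = 0.00298). The tested probe set of Tubb2a is of a family type that can share probes with related transcripts. Lsr, a lipoprotein receptor of tricellular junctions, was at 56.5 and 50.1 in CD4+ against 313 and 447 in CD8+ cells (at least 4.09-fold higher, adjusted p = 0.0123), with both probe sets called. Laptm4b, a lysosomal membrane protein, stood at 33.8 and 27.1 in CD4+ against 450.2 and 442 in CD8+ cells (at least 4.88-fold higher, adjusted p = 0.00205). Unc119b, a lipid-binding trafficking protein, measured 215 and 226 in CD4+ against 1497 and 1303 in CD8+ cells (log2 difference 2.65 ± 0.29, adjusted p = 0.00095), and Nudt9, an ADP-ribose pyrophosphatase, 115 and 128 in CD4+ against 582 and 399.5 in CD8+ cells (log2 difference 1.95 ± 0.35, adjusted p = 0.0154). Lima1 and Lsr lost their calls without either fresh CD4+ array or either fresh CD8+ array (adjusted p = 0.0585 to 0.137). Nudt9 lost its call without either fresh CD4+ array or CD8+ replicate 1 (adjusted p = 0.121 to 0.158). Tubb2a, Laptm4b and Unc119b stayed called with any 1 of the 12 arrays left out. The other probe set of Lsr stayed called with each of the 4 compared arrays left out.

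Lower genes of large size included a protease and enzymes of ganglioside synthesis. Mmp9, the gelatinase B that neutrophils also hold, measured 346 and 364 on the CD4+ arrays and -38.3 and -18.9 on the CD8+ arrays (at least 3.89-fold lower, adjusted p = 0.00298). B4galnt1 and B4galt6, glycosyltransferases on the path to complex gangliosides, stood at 1809 and 1522 in CD4+ against 314 and 538 in CD8+ cells (log2 difference -2.01 ± 0.31, adjusted p = 0.00646) and 245 and 381 in CD4+ against 68.3 and 55.4 in CD8+ cells (at least 3.34-fold lower, adjusted p = 0.0154). Ctnnd2, delta-catenin, was at 878 and 1061 on the CD4+ arrays and 97.7 and 105 on the CD8+ arrays (log2 difference -3.19 ± 0.35, adjusted p = 0.000961), and Ddr1, a collagen receptor kinase, at 711 and 732 in CD4+ against 147 and 144 in CD8+ cells (log2 difference -2.28 ± 0.31, adjusted p = 0.00348). Bex6, a brain-expressed X-linked family member, measured 1205 and 1824 in CD4+ against 220.4 and 186 in CD8+ cells (log2 difference -2.85 ± 0.34, adjusted p = 0.00135). Emb, the adhesion molecule embigin, was at 344 and 408 in CD4+ against 82.1 and 63.5 in CD8+ cells (at least 4.1-fold lower, adjusted p = 0.0183), and Ptpro, a receptor tyrosine phosphatase, at 456 and 442 in CD4+ against 102 and 115 in CD8+ cells (log2 difference -2.00 ± 0.43, adjusted p = 0.04). No CD8+ array of these 8 genes reached the lower CD4+ array, as held for every probe set called lower and for 20.6% of all tested. Mmp9 and Ddr1 lost their calls without either fresh CD4+ array (adjusted p = 0.0592 to 0.0908). B4galnt1 lost its call without either fresh CD4+ array or CD8+ replicate 1 (adjusted p = 0.0552 to 0.108). B4galt6 and Emb lost their calls without either fresh CD4+ array or either fresh CD8+ array (adjusted p = 0.0531 to 0.244). Ptpro lost its call without either fresh CD4+ array, either fresh CD8+ array, either fresh DN array or either cultured DN array (adjusted p = 0.057 to 0.289). Ctnnd2 and Bex6 stayed called with any 1 of the 12 arrays left out.

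The cultured CD8+ and CD4+ arrays, which the fresh comparison does not use apart from the shared estimate of the spread, gave the same contrast after 2 h of culture. There 141 probe sets were called (2.29%), 87 higher (1.41%) and 54 lower (0.877%), or 1.58% of genes higher and 1.03% lower. Of the 63 probe sets higher in fresh CD8+ cells, 61 had a positive difference in culture, as 46.5% of all tested did, 29 were called higher and 0 lower. Their median log2 difference was 2.65 fresh and 1.44 cultured. Of the 59 lower in fresh cells, 55 had a negative difference in culture, as 53.5% of all tested did, 15 were called lower and 0 higher, with medians of -2.16 and -1.28. Over all tested probe sets the 2 sets of differences correlated at 0.274 (Pearson, as a description across probe sets that share arrays, with no test). The probe sets were chosen on the fresh arrays, so the medians are set side by side with no test. The cultured count rested on single arrays too: it was 551 without cultured CD4+ replicate 2, and 35 and 28 without cultured CD8+ replicate 1 or 2, while cultured CD4+ replicate 1 had the highest noise of the 12 arrays (108, the root mean square of its values below 0).

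**Figure D3:**
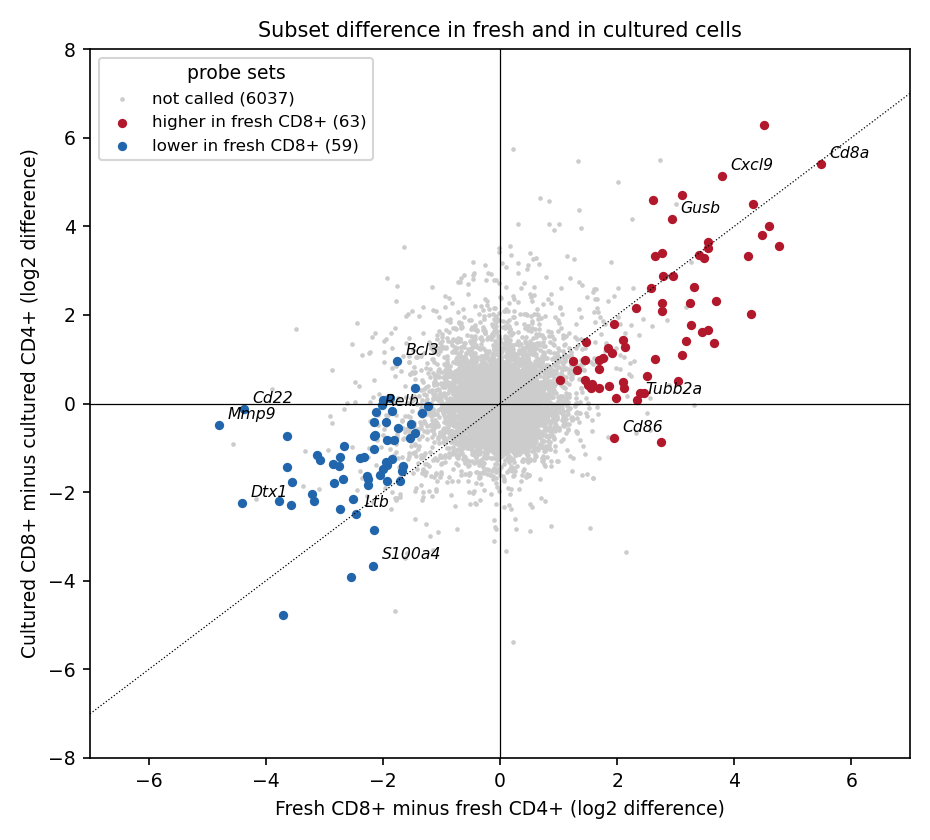
Log2 difference of CD8+ minus CD4+ cells when fresh (x axis) and after 2 h of culture (y axis), 1 point per tested probe set, with the 63 called higher and the 59 called lower in fresh CD8+ cells in colour and the dotted line marking equal differences. Of the coloured points, 61 of 63 and 55 of 59 keep their sign in culture.

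The difference between the 2 states was tested directly, and limma called 0 of 6159 probe sets, the smallest adjusted p being 0.307. At an unadjusted p under 0.05 there were 525, and without cultured CD4+ replicate 2 162 were called. Among genes called fresh, the 6 with the lowest unadjusted p for this difference show how the states compared. Dtx1, the Notch target, stood at 757 and 851 in cultured CD4+ against 154 and 178 in cultured CD8+ cells (log2 difference in culture -2.25 ± 0.28, adjusted p = 0.00168; difference between states -2.15 ± 0.40, adjusted p = 0.307), and kept its call and direction in culture. Relb measured 1576 and 1412 in cultured CD4+ against 1316 and 1305 in cultured CD8+ cells (-0.19 ± 0.23, adjusted p = 0.732; difference between states -1.93 ± 0.33, adjusted p = 0.307). Tubb2a was at 660.3 and 592 in cultured CD4+ against 662 and 651 in cultured CD8+ cells (0.07 ± 0.31, adjusted p = 0.934; difference between states 2.27 ± 0.44, adjusted p = 0.307), and Cd86 at 1223 and 2569.6 in cultured CD4+ against 1024 and 1034 in cultured CD8+ cells (-0.79 ± 0.39, adjusted p = 0.369; difference between states 2.73 ± 0.56, adjusted p = 0.307). Bcl3, an atypical IkB protein, measured 316 and 266 in fresh CD4+ against 83.5 and 77.3 in fresh CD8+ cells (at least 3.17-fold lower, adjusted p = 0.0176), and 232 and 167 in cultured CD4+ against 455 and 332 in cultured CD8+ cells (0.96 ± 0.32, adjusted p = 0.181; difference between states -2.72 ± 0.46, adjusted p = 0.307). Ppt2, a palmitoyl-protein thioesterase, was at 49.6 and 28.6 in fresh CD4+ against 355 and 308 in fresh CD8+ cells (at least 3.62-fold higher, adjusted p = 0.0103), and 131.6 and 55.6 in cultured CD4+ against 35.5 and 45.6 in cultured CD8+ cells (adjusted p = 0.398; difference between states 3.63 ± 0.65, adjusted p = 0.307). The differences between states of Bcl3 and Ppt2 rest partly on values under the floor. Relb, Tubb2a, Cd86, Bcl3 and Ppt2 were not called in culture, where the differences of Cd86, Bcl3 and Ppt2 had the opposite sign, and the test did not show that they changed between states. Bcl3 and Ppt2 lost their fresh calls without either fresh CD4+ array or CD8+ replicate 1 (adjusted p = 0.0644 to 0.21).

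Other genes called in fresh cells stood as follows in culture. Cd8a was at -16.7 and -3.9 in cultured CD4+ against 891 and 679 in cultured CD8+ cells (at least 8.51-fold higher, adjusted p = 0.000694) and Cadm1 at 258 and 84.1 in cultured CD4+ against 1839 and 3290.0 in cultured CD8+ cells (log2 difference 4.01 ± 0.45, adjusted p = 0.00143). Gusb, the lysosomal enzyme, measured 84.3 and 101 in cultured CD4+ against 1722 and 1793 in cultured CD8+ cells (4.17 ± 0.25, adjusted p = 2.44e-05), and Cxcl9 70.2 and 69.6 in cultured CD4+ against 2671 and 2696 in cultured CD8+ cells (at least 29.4-fold higher, adjusted p = 0.000504). All 4 were called in both states. Irf8 stood at 736 and 171 in cultured CD4+ against 1908 and 1098 in cultured CD8+ cells (2.02 ± 0.66, adjusted p = 0.166) and Sirpa at 104 and 475 in cultured CD4+ against 18.4 and 64.4 in cultured CD8+ cells (at least 2.43-fold apart, adjusted p = 0.147), neither of them called in culture. Ltb, lymphotoxin beta, measured 1057 and 895 in cultured CD4+ against 178 and 164 in cultured CD8+ cells (-2.48 ± 0.29, adjusted p = 0.00143), called in both.

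Fresh DN cells lay close to CD4+ cells for most of the called transcripts. On a scale on which the CD4+ mean is 0 and the CD8+ mean is 1, the DN mean had a median of 0.19 over the 63 higher probe sets and of 0.07 over the 59 lower, and 58 of 63 and 58 of 59 lay nearer to the CD4+ mean. The scale was set by the same CD4+ and CD8+ arrays that chose the probe sets, so these positions are a description. Dtx1 measured 2014 and 2278 on the DN arrays, Ltb 4177 and 5275 and Relb 1401 and 1735, all close to the CD4+ arrays. Cd8a was at 36.1 and 7.7 and Cd4 at 82.7 and 77.6, all under the floor. Irf8 stood at 1637 and 1124 and Cd24a at 712 and 728, between the other 2 subsets.

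**Figure D4:**
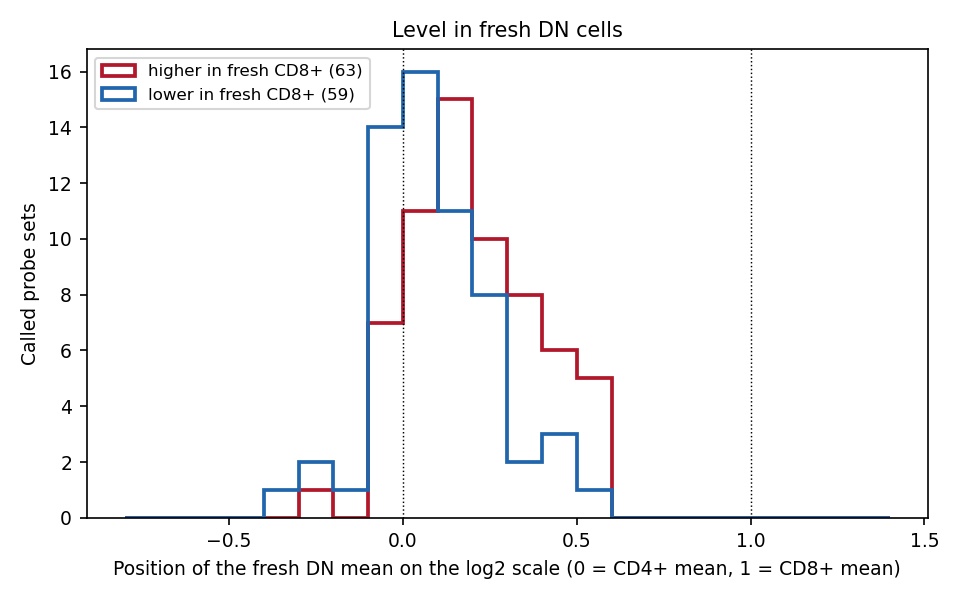
Position of the fresh DN mean between the fresh CD4+ mean (0, dotted line) and the fresh CD8+ mean (1, dotted line) on the log2 scale, as a count of called probe sets per bin of 0.1 for the 63 higher and the 59 lower in CD8+ cells. Most of both sets lie nearer to 0, with medians of 0.19 and 0.07.

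Markers of other spleen cells were read from 10 lists. Most T cell markers were under the floor: this held for 10 of 12 on all 4 arrays. Of the 12, 4 were tested and 0 called. Their sum was 368 to 503 on the CD4+ and 226 to 481 on the CD8+ arrays, and the CD3 chain genes Cd3d, Cd3e and Cd3g were at 5.6 or below on all 4. Above the floor were Lat on all 4 (158.8 and 103.3 in CD4+ against 212.6 and 99.9 in CD8+ cells, adjusted p = 0.975) and Cd5 on both CD4+ arrays (168.2 and 157.0 against 53.8 and 24.9 in CD8+ cells, adjusted p = 0.334). Of B cell markers, 10 of 16 were tested and 2 called lower (Cd22 and Cd72), with sums of 5891 to 6529 and 4677 to 5237. The difference was positive for 4 of the 10 and negative for 6. Among the former, Ms4a1 was at 216.0 and 174.3 in CD4+ against 695.7 and 266.6 in CD8+ cells (log2 difference 1.14 ± 0.56, adjusted p = 0.511). Ighm, the IgM heavy chain, was at 3054 and 3840.3 in CD4+ against 2741 and 3965 in CD8+ cells, and Cd79a, a defining B cell receptor chain, was under the floor on all 4 at 37.7 and 54.9 in CD4+ against 48.1 and 79.0 in CD8+ cells. Macrophage and monocyte markers summed to 5365 to 5919 against 3794 to 5027 with 1 of 12 tested called lower, Adgre1, the F4/80 antigen, at 386 and 664 in CD4+ against 13.3 and 50.5 in CD8+ cells (at least 5.54-fold lower, adjusted p = 0.0379). This list was mixed, with 5 positive and 7 negative differences and a median of -0.09. Vcam1, for 1, lay higher without a call (73.2 and 79.0 in CD4+ against 289 and 113 in CD8+ cells, adjusted p = 0.571). Of 4 neutrophil markers tested, Mmp9 was called lower, while S100a8, S100a9 and Mpo were under the floor on all 4 arrays. The other 3 tested, Camp, Elane and Csf3r, had positive differences without a call (log2 0.67 ± 0.79, 0.49 ± 0.64 and 0.05 ± 0.55). Of these, Elane was under the floor on all 4 arrays. NK cell markers summed to 2987 to 4480 against 1100 to 2113. Most of these sums was Ccl5, the chemokine described above (3435 and 2319 in CD4+ against 1413 and 690.3 in CD8+ cells). Of 4 tested, 0 were called, and the difference was positive for 2 and negative for 2. Among the latter was Klrd1, a lectin-like receptor (609 and 489.9 in CD4+ against 317 and 125 in CD8+ cells, log2 difference -1.43 ± 0.45, adjusted p = 0.177). Among the former was Klrk1, under the floor on all 4 arrays by its brightest probe set (log2 difference 0.73 ± 0.53, adjusted p = 0.786). Ncr1, Gzma and Prf1 were under the floor on all 4. The plasma cell, plasmacytoid, red cell, platelet and stromal lists gave 0 calls. The part of these cells in Cd22, Cd72, Adgre1 and Mmp9 was not tested. Adgre1 lost its call without either fresh CD4+ array, either fresh CD8+ array, either fresh DN array, either cultured CD8+ array or cultured DN replicate 2 (adjusted p = 0.0507 to 0.341).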

How the data were processed

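Per the labels, the authors deposited Average Difference intensity values after global scaling, made by software that no source used here names. Their table holds linear intensities of 12488 probe sets on 12 arrays. The mean intensity between the outer 2% at each end was 150 on every array, so no further scaling was applied. All 66 control probe sets were left out. Of the other 12422, the platform annotation gave 1 symbol to 10833, several to 396 and none to 1193, and the last 2 kinds were not named. RefSeq's gene table held the Entrez identifiers of 10817 of them, and 0 symbols changed.

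Intensities x were put on log2((x + sqrt(x² + c²)) / 2), which allows values below 0, with c = 45.69, the median array's root mean square of values below 0. This understates differences of dim probe sets, and values below 0 can enlarge one. The detection floor was 2 times c (91.37), and 6159 probe sets above it on at least 2 arrays were tested. limma 3.58.1 (R 4.3.3) was fitted with 1 mean per group over all 12 arrays (6 residual degrees of freedom), with eBayes using trend and robust estimation and Benjamini-Hochberg adjustment over the probe sets tested, and called at an adjusted p under 0.05. With 2 arrays a group, their number limits the precision. The fit was tested on simulated data. A gene with several probe sets (666 genes) was represented by the one of highest mean. The suffixes of some probe sets, those of Cadm1, Tubb2a, Fcer1g, Cd22, Cd86, Ptpn6 and Plpp1 among them, mark probes that other transcripts can share. Tables, motif searches and figures used Python 3.11.15, pandas 2.3.3 and matplotlib 3.10.9.

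The experiment number in the titles was taken to pair the arrays in an alternative fit, while the main calls do not use it. Deviations from the group means of same-numbered arrays correlated at 0.32 between fresh CD8+ and CD4+ cells and at 0.106 to 0.444 over all 15 pairs of groups. The 3 arrays of a Gapdh ratio above 1.2 were all of experiment 1 (fresh CD8+ 2.55, cultured CD4+ 1.97 and cultured DN 1.34). The correlation of 0.444 was that of fresh CD8+ with cultured CD4+ cells. The part of RNA integrity in these correlations and in the fit with the block was not tested. A fit with this number as a block is given where it changes a call. Other alternatives changed the offset, the floor, the filter, the normalization, the groups fitted, the trend, array weights, the arrays of high Gapdh ratio and each array in turn.

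The comparison and the 34 gene lists, which held 519 tested genes, were chosen with earlier results of these data known, so list counts are a description. Genes were named by rule: 12 called genes in each direction, by size of difference among those above the floor on all 4 arrays, 10 in each by size of bound, each list's called members and up to 3 others of lowest p, Cd8a, Cd4 and Itgax, and the 6 called genes of lowest unadjusted p for the difference between states, whose adjusted p-values tie. Other names are marked as chosen after their values were seen, except in the lists of other spleen cells. There Cd3d, Cd3e, Cd3g, Ighm, Cd79a, S100a8, S100a9, Mpo, Ncr1, Gzma and Prf1 were picked outside the rule. Some genes that the rule named are not printed.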

Additional observations from a re-analysis of the deposited data

How the results depend on the processing

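No result changed direction under any alternative run. The fresh count of 122 probe sets was 206 with values under the floor set to it, 189 after quantile normalization, 75 with only the 4 arrays compared in the fit, 192 with the experiment number as a block, and 189 without the 3 arrays of a Gapdh ratio above 1.2. It ran from 26 to 202 over the fits that left out 1 of the 12 arrays. Under the settings of offset, filter, trend, array weights and the 6 fresh arrays alone it lay between 95 and 175. The cultured count of 141 was 20 with only the groups compared, 30 with array weights, 317 without the arrays of high Gapdh ratio and 28 to 551 with 1 array left out. The count for the difference between states, 0, was 1 without the trend, 7 without the arrays of high Gapdh ratio and 0 to 162 with 1 array left out. The block with the experiment number kept all 122 fresh calls and changed no call of a named gene other than those printed with it. It moved the calls in the lists of CD8-negative surface markers and of transcription factors from 2 to 4 each, of lysosomal genes from 2 to 5, of interferon-induced genes from 2 to 4, of chemokines from 1 to 3, of cytokines and of glycolysis from 1 to 2 each, and of Toll-like receptors and NK cell markers from 0 to 1 each. Calls were also added in the lists of CD8+ dendritic cell markers, antigen receptor-type signalling, Fc and complement genes, chemoattractant receptors and semaphorins. The same held for MHC class II, oxidative phosphorylation and actin genes, as described above. Among the named genes, 53 and 54 calls were lost without CD4+ replicate 1 or 2, 39 without CD8+ replicate 1 and 18 without CD8+ replicate 2. A fit without 1 array of a group of 2 assumes that the lone array varies like the other groups. Why the counts moved was not tested. Genes under the floor in a subset have only a bound there.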

Other observations

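Further called genes outside the lists are given here. They were picked after their values were seen, so they are a description and stand for no theme. Sesn1, sestrin 1, a stress-induced antioxidant gene, was called lower (446 and 481 in CD4+ against 107 and 145 in CD8+ cells, log2 difference -1.85 ± 0.35, adjusted p = 0.0215). Txn1, thioredoxin, measured 1398 and 1557 on the CD4+ arrays and 5661 and 4032 on the CD8+ arrays (log2 difference 1.70 ± 0.26, adjusted p = 0.00562). Sod1, the cytosolic superoxide dismutase, stood at 1306 and 1333 in CD4+ against 2598 and 2767 in CD8+ cells (log2 difference 1.02 ± 0.23, adjusted p = 0.0461), and Gclc, the catalytic subunit of glutathione synthesis, at 39.2 and 21.2 in CD4+ against 442 and 240.0 in CD8+ cells (at least 3.56-fold higher, adjusted p = 0.0461). Also called higher were Plin2, a coat protein of lipid droplets (97.2 and 85.4 in CD4+ against 616 and 1490.2 in CD8+ cells, log2 difference 3.31 ± 0.51, adjusted p = 0.0059), Slc11a1, the phagosomal metal transporter NRAMP1 (124 and 76.1 in CD4+ against 534 and 781 in CD8+ cells, log2 difference 2.65 ± 0.38, adjusted p = 0.00407), and Atp1b3, a sodium pump subunit (944 and 950.1 in CD4+ against 2498 and 2024 in CD8+ cells, log2 difference 1.25 ± 0.26, adjusted p = 0.0379). Lgals3, galectin-3, was at 716 and 764 in CD4+ against 2406 and 2353 in CD8+ cells (log2 difference 1.68 ± 0.32, adjusted p = 0.0206), and the GTPase Rala at 240.1 and 260.4 in CD4+ against 704 and 678 in CD8+ cells (log2 difference 1.46 ± 0.26, adjusted p = 0.0136). Txn1 and Plin2 lost their calls without either fresh CD4+ array (adjusted p = 0.0596 to 0.0857). Sod1 lost its call without either fresh CD4+ array, either fresh CD8+ array, either fresh DN array, either cultured CD8+ array or either cultured DN array (adjusted p = 0.0613 to 0.338). Gclc lost its call without either fresh CD4+ array, either fresh CD8+ array, either cultured CD8+ array or either cultured DN array (adjusted p = 0.057 to 0.32). Slc11a1 lost its call without CD4+ replicate 2 (adjusted p = 0.0703). Atp1b3 lost its call without either fresh CD4+ array, CD8+ replicate 1, either fresh DN array or either cultured DN array (adjusted p = 0.057 to 0.27). Lgals3 lost its call without either fresh CD4+ array or either fresh CD8+ array (adjusted p = 0.0525 to 0.18). Rala lost its call without either fresh CD4+ array or CD8+ replicate 1 (adjusted p = 0.0723 to 0.176).

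On the lower side, App, the amyloid precursor protein, measured 1872 and 1801 on the CD4+ arrays and 679.9 and 659.9 on the CD8+ arrays (log2 difference -1.45 ± 0.25, adjusted p = 0.0117). Bhlhe40, a transcriptional repressor, stood at 742 and 919 in CD4+ against 226 and 350.4 in CD8+ cells (log2 difference -1.54 ± 0.31, adjusted p = 0.0274). Man1a, a Golgi mannosidase, was at 771 and 597 in CD4+ against 156 and 82.0 in CD8+ cells (log2 difference -2.52 ± 0.40, adjusted p = 0.00663), and both of its tested probe sets were called. Abcb1a, a drug efflux pump, measured 226 and 198 in CD4+ against 14.3 and 18.0 in CD8+ cells (at least 2.31-fold lower, adjusted p = 0.00426), and Ier3, an immediate early gene, 1568 and 1575 in CD4+ against 297 and 609 in CD8+ cells (log2 difference -1.88 ± 0.38, adjusted p = 0.0296). In all 14 genes of this section the groups did not overlap, as on all 122 called probe sets. Over all tested this held for 18.5% (higher) and 20.6% (lower). App lost its call without either fresh CD4+ array or CD8+ replicate 1 (adjusted p = 0.0552 to 0.14). Sesn1 lost its call without either fresh CD4+ array, CD8+ replicate 1 or either fresh DN array (adjusted p = 0.0507 to 0.244). Bhlhe40 lost its call without either fresh CD4+ array, CD8+ replicate 1 or either fresh DN array (adjusted p = 0.0546 to 0.277). Man1a and Abcb1a lost their calls without either fresh CD4+ array (adjusted p = 0.0596 to 0.108). Ier3 lost its call without either fresh CD4+ array, CD8+ replicate 1 or either cultured CD8+ array (adjusted p = 0.0566 to 0.209).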
